A study of Mus musculus with 8 samples.

Results

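The genes described here encode the platelet receptors for thrombin, ADP, ATP and thromboxane A2 and the G protein components that act directly below them. They were taken as the rows of the expression table whose symbol is F2rl2, F2rl3, P2ry12, P2ry1, P2rx1, Tbxa2r, Gnaq, Gnaz, Gng11 or Rgs18, which gave 10 of the 43548 genes in the table. RNA had been sequenced from washed platelets of 4 TNFdARE mice, which carry a Tnf allele without its AU-rich elements and are positive for it in the labels, and of 4 littermate control mice without that allele, whose libraries are named B6. By the study's methods the TNFdARE line was backcrossed to C57BL/6J. All 8 mice were sampled at baseline with no treatment, were 8 to 12 weeks old by the study's methods, comprised 2 females and 2 males per genotype, and carry the same batch date. Other fields of the same labels mention 3 mice per group, and older males from which humeri were collected. The allele is present in every cell of the animal, so platelets, their precursor megakaryocytes and the inflamed tissues around them are not separated in this model. The deposited values were read as FPKM (fragment numbers scaled to transcript length and library size), which allows levels to be compared between genes.

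Platelets respond to a wound through a small set of surface receptors. Thrombin, ADP and thromboxane A2 act on G protein-coupled receptors, and ATP opens an ion channel. Receptors coupled to Gq activate phospholipase C and raise cytosolic calcium, those coupled to G12 and G13 drive shape change, and those coupled to Gi and Gz lower cyclic AMP. The signals converge on the small GTPase Rap1 and on integrin αIIbβ3, which then binds fibrinogen. RGS proteins shorten these signals because they speed up GTP hydrolysis on the Gα subunit. Platelets have no nucleus, so their own RNA is inherited from megakaryocytes. The libraries also held transcripts that mark other cell types, given below, and the cell of origin of each transcript was not tested. In bulk libraries fewer cells of a type and less RNA per cell cannot be told apart.

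The platelet identity of the libraries was checked on 16 marker genes. All 16 had a mean of at least 1 FPKM, and their summed level was 1290 to 1790 FPKM in the control libraries and 1200 to 1360 FPKM in the TNFdARE libraries, led by Pf4, Ppbp and Nrgn. Defining markers of T cells (Cd3d, Cd3e), B cells (Cd79a, Cd79b), neutrophils (Ly6g, S100a8) and monocytes (Cd14, Ccr2) were listed at 0 in all 8 libraries. Other genes of those lists were present. Lyz2, a lysozyme gene of myeloid cells, was at 30.8 to 50.3 FPKM in the control libraries and 11.9 to 35.8 FPKM in the TNFdARE libraries, Cd74 reached 13.7 FPKM, Igkc 23.2 FPKM and S100a9 10.3 FPKM. The summed monocyte list was 30.8 to 50.3 FPKM in the control libraries and 12 to 36.1 FPKM in the TNFdARE libraries. Over all libraries the sums were 0 to 34.3 FPKM for B cells, 0 to 10.3 for neutrophils and 0 to 1.02 for T cells, and their part in the results was not tested. The libraries differed in completeness. TNFdARE mouse 1 and TNFdARE mouse 4 had the fewest genes above 0, with 818 and 1225, against 1479 to 2742 in control mice and 3187 and 4917 in TNFdARE mice 2 and 3. The same libraries had the highest summed globin FPKM, at 6802 and 14560, against 733.8 to 2896 in the other 6. Of 7 erythroid markers tested, 6 had a higher level in TNFdARE mice at an unadjusted p under 0.05, against 1.76% of all genes tested, and none after adjustment (limma). The summed erythroid list was 752 to 2200 FPKM in the control libraries and 1110 to 14700 FPKM in the TNFdARE libraries, with Klf1 at 0 in all 8. Hprt, which most cells express, was listed at 0 in all 8 libraries and Gapdh in 5, so a gene listed at 0 is not shown to be absent. For the genotype comparison, the 1534 genes with a mean of at least 1 FPKM over the 8 mice were tested with limma on log2(FPKM + 1), and p-values were adjusted over all of them by the Benjamini-Hochberg method. Of the 10 genes of the receptor pathway, 8 passed this filter, and F2rl3 and Tbxa2r did not.

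**Figure D1:**
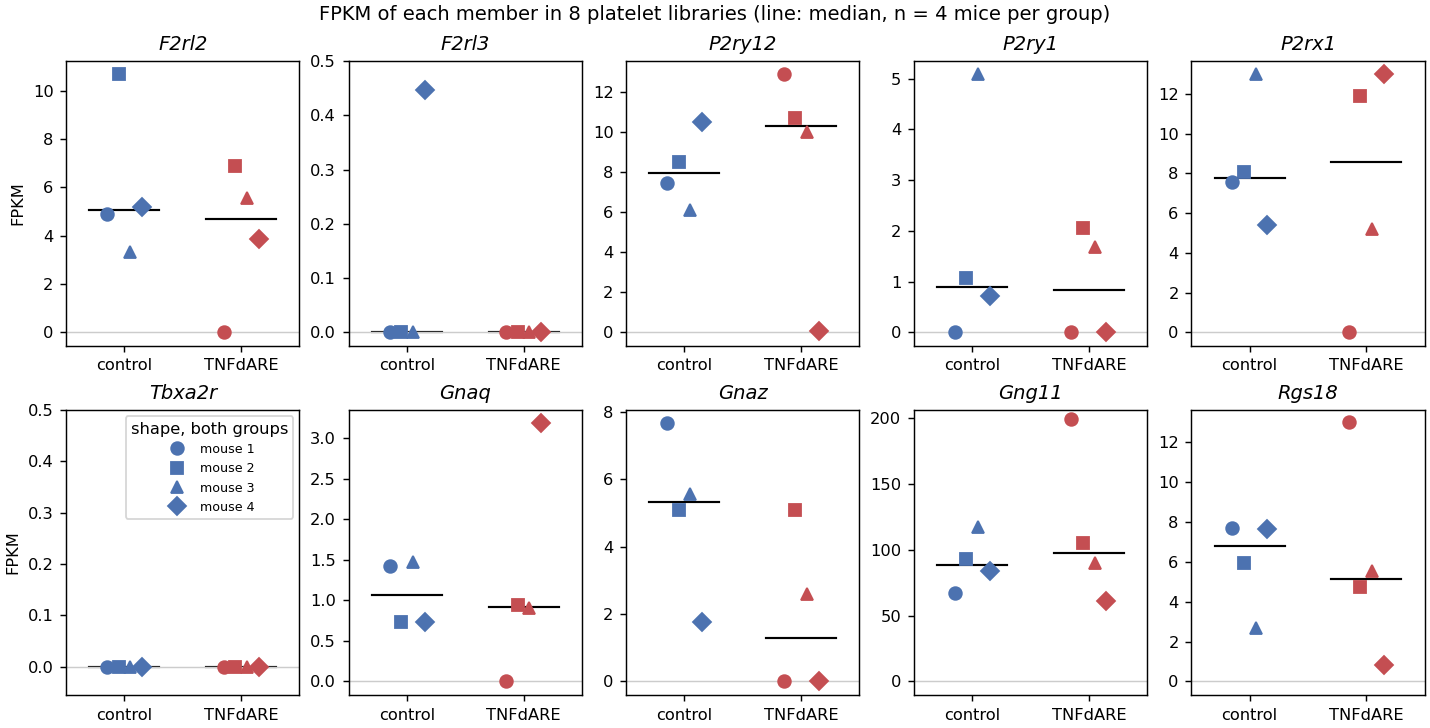
FPKM (vertical axes, a separate linear scale per gene) of the 10 genes in 4 control mice (blue) and 4 TNFdARE mice (red), with the symbol shape giving the mouse number and a line at the group median. The groups overlapped for each of the 9 genes with a value, and the 4 TNFdARE mice were spread more widely than the control mice for P2ry12, P2rx1, Gnaq, Gng11 and Rgs18.

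The thrombin receptors came first in the pathway. Mouse platelets carry PAR3, encoded by F2rl2, which binds thrombin and presents it to PAR4, and PAR4 itself, encoded by F2rl3, which signals after cleavage of its N terminus. F2rl2 (ENSMUSG00000021675, chr13:95696853-95702739, plus strand, mm10) was measured at 4.92, 10.7, 3.31 and 5.18 FPKM in control mice 1 to 4. In TNFdARE mouse 1 it was listed at 0, and in TNFdARE mice 2 to 4 it was measured at 6.88, 5.55 and 3.87 FPKM. Those 3 values lay within the control range, and only the library with the fewest genes fell outside it. The difference, as a log2 fold change of TNFdARE against control, was -0.72 (95% interval -2.35 to 0.92, adjusted p = 0.87, limma). It was -0.05 without TNFdARE mouse 1 and 0.13 when TNFdARE mice 1 and 4 were both left out.

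F2rl3 (ENSMUSG00000050147, chr8:72761880-72763874, plus strand) was listed at 0 in 7 libraries and at 0.446 FPKM in control mouse 4. The receptor that carries the thrombin signal in mouse platelets was therefore almost without a value, while its cofactor F2rl2 was above 0 in 7 of 8 libraries. A 467-base stretch of the F2rl3 transcript is 97.0% identical to the processed pseudogene Gm29705, whose identifier had no row in the table. Whether fragments of F2rl3 were lost to it was not tested.

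The upstream sequences of both thrombin receptor genes are shown because one gene was measured in 7 libraries and the other listed at 0 in 7. Each was taken from the 250 bases before the RefSeq start (GRCm38.p6), less any bases inside the GENCODE gene, with matches to AGATAA (a form of the GATA factor motif) and GGAAGT (a form of the ETS factor motif) on either strand in capitals. GATA and ETS factors act in the megakaryocyte lineage. The F2rl2 window is chr13:95696670-95696852 and the F2rl3 window is chr8:72761409-72761658, both on the plus strand.
F2rl2: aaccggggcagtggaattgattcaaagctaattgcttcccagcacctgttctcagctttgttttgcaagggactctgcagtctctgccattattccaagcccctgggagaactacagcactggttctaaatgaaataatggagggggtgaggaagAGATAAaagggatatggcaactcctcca
F2rl3: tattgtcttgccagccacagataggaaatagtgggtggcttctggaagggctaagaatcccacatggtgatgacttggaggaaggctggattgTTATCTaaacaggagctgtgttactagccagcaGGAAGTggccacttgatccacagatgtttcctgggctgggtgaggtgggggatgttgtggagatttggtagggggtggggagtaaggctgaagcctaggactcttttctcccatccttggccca
The window of F2rl2 held 1 AGATAA match and no GGAAGT match. The window of F2rl3, a gene listed at 0 in 7 libraries, held 1 of each, the former read as TTATCT. The letters were searched in the full 250 bases, and among all 32851 RefSeq windows of that length 9.99% held AGATAA and 19.7% held GGAAGT, and of the 10 genes 7 had a window in the table. P2ry1, Tbxa2r and Gnaq held neither. The letters are a description of the windows and show no binding.

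The nucleotide receptors come next. P2Y12, the Gi-coupled ADP receptor that clopidogrel blocks, is encoded by P2ry12 (ENSMUSG00000036353, chr3:59216272-59262871, minus strand). It was measured at 7.47, 8.48, 6.10 and 10.5 FPKM in control mice 1 to 4 and at 12.9, 10.7, 10 and 0.0436 FPKM in TNFdARE mice 1 to 4. The control mice lay close together (8.13 ± 1.84, SD, n = 4). Of the TNFdARE mice, 2 exceeded every control mouse, 1 lay within the control range and TNFdARE mouse 4 was close to 0. On the log2 scale the difference was -0.45 (95% interval -2.20 to 1.29, adjusted p = 0.90, limma). Without TNFdARE mouse 4 it was 0.43 (adjusted p = 0.88), so the sign of the difference was set by that library. With quantile normalization it was 0.08. An exon of Med12l on the opposite strand overlaps P2ry12, and Med12l was at 0.86 FPKM or less in every library.

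P2rx1 (ENSMUSG00000020787, chr11:72999103-73015200, plus strand) encodes the ATP-gated cation channel P2X1. Its values were 7.54, 8.05, 13.0 and 5.41 FPKM in control mice 1 to 4. TNFdARE mouse 1 had a listed 0, and TNFdARE mice 2 to 4 had 11.9, 5.22 and 13.0 FPKM. P2rx1 was thus listed at 0, which can be a failed estimate, in the mouse with the highest P2ry12 and close to its highest value in the mouse where P2ry12 was close to 0. The log2 fold change was -0.66 (95% interval -2.43 to 1.12, adjusted p = 0.87, limma), and it was 0.19 without TNFdARE mouse 1. Both genes are shown with the sequence before their starts, chosen and marked as above, because they had the highest levels among the receptors. The windows are chr3:59262986-59263235 on the minus strand for P2ry12 and chr11:72998895-72999102 on the plus strand for P2rx1.
P2ry12: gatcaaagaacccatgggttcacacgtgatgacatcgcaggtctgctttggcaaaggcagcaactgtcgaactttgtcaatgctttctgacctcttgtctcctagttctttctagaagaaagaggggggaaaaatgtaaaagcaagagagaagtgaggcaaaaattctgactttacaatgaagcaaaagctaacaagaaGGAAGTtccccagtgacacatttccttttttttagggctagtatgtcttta
P2rx1: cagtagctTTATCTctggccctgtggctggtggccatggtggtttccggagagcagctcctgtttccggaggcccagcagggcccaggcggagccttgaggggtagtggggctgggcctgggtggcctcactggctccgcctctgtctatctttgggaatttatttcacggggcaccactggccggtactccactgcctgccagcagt
The P2ry12 window held 1 GGAAGT match and no AGATAA match, and the P2rx1 window held 1 AGATAA match, read as TTATCT on this strand, and no GGAAGT match.

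**Figure D2:**
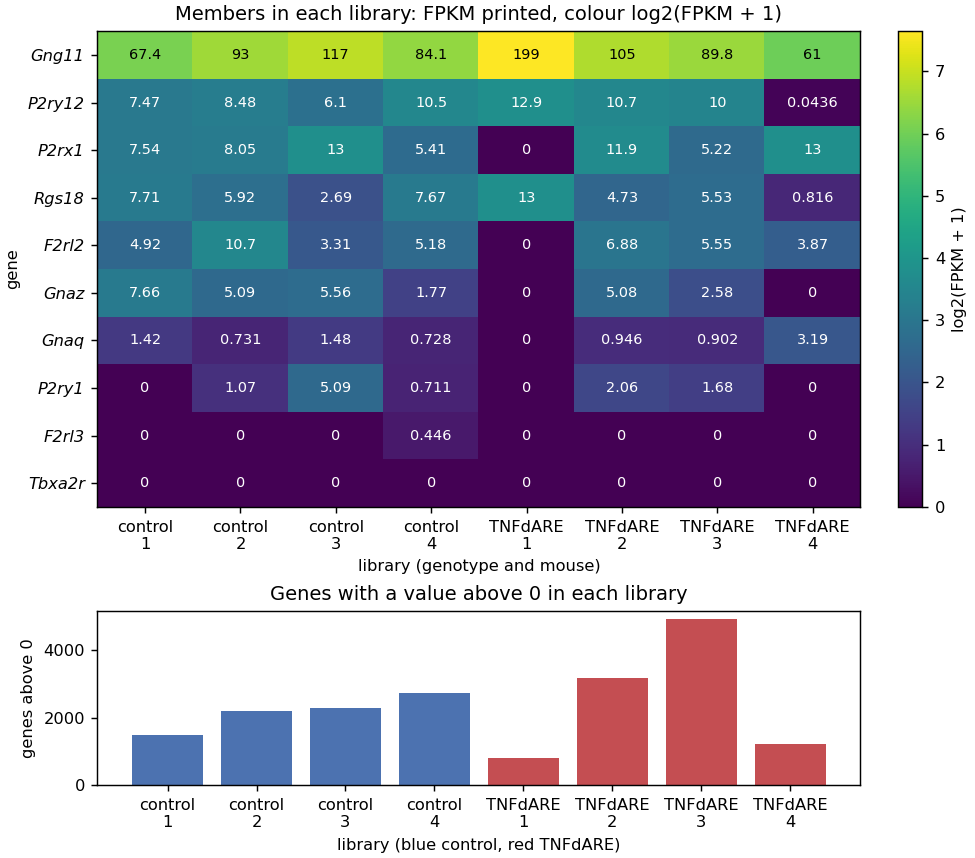
Upper panel, FPKM of the 10 genes (rows, ordered by median) in the 8 libraries (columns), with the value printed in each cell and the colour on the log2(FPKM + 1) scale. Lower panel, the number of genes above 0 in each library. In TNFdARE mouse 1 only Gng11, P2ry12 and Rgs18 were above 0, each at its highest value, while in TNFdARE mouse 4 the same 3 genes were at their lowest.

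P2Y1, the Gq-coupled ADP receptor that starts calcium release and shape change, is encoded by P2ry1 (ENSMUSG00000027765, chr3:61002795-61008982, plus strand). It was listed at 0, 1.07, 5.09 and 0.711 FPKM in control mice 1 to 4 and at 0, 2.06, 1.68 and 0 FPKM in TNFdARE mice 1 to 4. The highest value, in control mouse 3, stood above the other 7 libraries, and the groups overlapped. The log2 difference was -0.35 (95% interval -2.03 to 1.33, adjusted p = 0.92, limma), and its sign turned without control mouse 3 (0.15), with sample weights (0.25) and without TNFdARE mice 1 and 4 (0.41). These values are uncertain, because an antisense gene covers the start of P2ry1. The annotation places Gm37035 (ENSMUSG00000102564, named RP24-159H19.2 in the table) at chr3:61001639-61003786 on the minus strand. Its single exon of 2148 bases shares 992 bases with P2ry1, of which 647 precede the coding part and 345 are the first bases of the coding part.

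Gm37035 was singled out after its values were seen. It was measured at 20.4, 26.6, 25.0 and 37.3 FPKM in control mice 1 to 4 and at 27.9, 29.7, 32.3 and 6.37 FPKM in TNFdARE mice 1 to 4. In every library Gm37035 was higher than P2ry1, and its mean of 25.7 FPKM ranked 143 among the genes tested, against 1319 for P2ry1. Whether the libraries keep strand is not given in the sources used here, so fragments from the 992 shared bases cannot be assigned to P2ry1 or to its antisense partner, while those from the 1156 bases of Gm37035 outside P2ry1 can. Gm37035 differed between genotypes by -0.36 on the log2 scale (adjusted p = 0.89, standard error 0.58, limma), and it was 0.16 without TNFdARE mouse 4. The first 120 bases of the P2ry1 coding part (chr3:61003442-61003561, mm10, plus strand, from GENCODE M21) lie in the shared stretch and are shown with the start codon in capitals, since a fragment from here could be assigned to either gene.
P2ry1: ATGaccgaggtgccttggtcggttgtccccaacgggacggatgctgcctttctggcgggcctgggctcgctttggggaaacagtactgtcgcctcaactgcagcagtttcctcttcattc

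**Figure D3:**
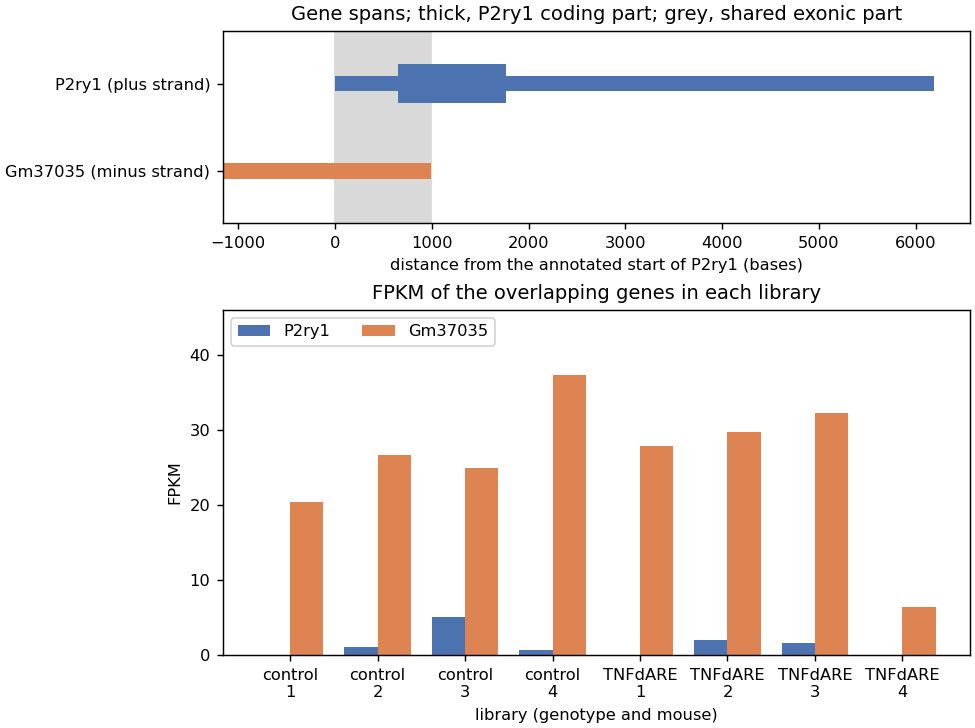
Upper panel, the spans of P2ry1 and Gm37035 by distance in bases from the annotated start of P2ry1, with the coding part thick and the 992 shared bases in grey. Lower panel, FPKM of both genes in each of the 8 libraries, where Gm37035 reached 6.37 to 37.3 FPKM and P2ry1 at most 5.09 FPKM.

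Tbxa2r (ENSMUSG00000034881, chr10:81328731-81335172, plus strand), which encodes the thromboxane A2 receptor that couples to Gq and G13, was listed at 0 in all 8 libraries. No fold change is given for it, and as for Hprt the listed 0 does not show that the transcript was absent. No gene overlapped it in the annotation, and no other transcript matched it at 90% identity over at least 150 bases.

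Below the receptors, the G protein subunits ranged from the most to nearly the least abundant of the 10 genes. Gng11 (ENSMUSG00000032766, chr6:4003904-4008445, plus strand) encodes a Gγ subunit, which pairs with a Gβ subunit and anchors it at the membrane. It was measured at 67.4, 93.0, 117 and 84.1 FPKM in control mice 1 to 4 and at 199, 105, 89.8 and 61.0 FPKM in TNFdARE mice 1 to 4. The TNFdARE mice held both the highest and the lowest value. The group levels were 90.5 ± 20.8 FPKM in control mice and 114 ± 59.6 FPKM in TNFdARE mice (SD, n = 4 each). The difference was 0.22 on the log2 scale (95% interval -0.75 to 1.19, adjusted p = 0.91, limma), and it turned to -0.09 without TNFdARE mouse 1. Gng11 ranked 46 among the 1534 genes tested by mean FPKM, and it held 64.8% to 88.5% of the summed FPKM of the 10 genes in each library.

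Gnaz (ENSMUSG00000040009, chr10:74967177-75016907, plus strand), which encodes the Gz α subunit that lowers cyclic AMP downstream of the adrenaline receptor of platelets, had the largest difference in size. Its values were 7.66, 5.09, 5.56 and 1.77 FPKM in control mice 1 to 4. TNFdARE mice 1 and 4 had a listed 0, and TNFdARE mice 2 and 3 had 5.08 and 2.58 FPKM. The measured TNFdARE values lay within the control range. The listed zeros were in the libraries with the fewest genes above 0, and the part of these libraries in the difference was not tested. Its log2 fold change of -1.36 was within error (95% interval -3.06 to 0.33, unadjusted p = 0.11, adjusted p = 0.86, limma, two-sided exact permutation p = 0.14). Leaving out either TNFdARE mouse 1 or TNFdARE mouse 4 gave -0.99, and leaving out both gave -0.25. It reached an unadjusted p of 0.0496 when TNFdARE mouse 2 was left out (-1.86, limma). The fold change stayed below 0 under all 20 alternatives, from -2.895 to -0.235.

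Gnaq (ENSMUSG00000024639, chr19:16132831-16387463, plus strand) encodes the Gq α subunit on which PAR4, P2Y1 and the thromboxane receptor rely. It was measured at 1.42, 0.731, 1.48 and 0.728 FPKM in control mice 1 to 4. In TNFdARE mouse 1 it was listed at 0, and in TNFdARE mice 2 to 4 it was 0.946, 0.902 and 3.19 FPKM. The groups overlapped, with a log2 fold change of -0.05 (95% interval -1.53 to 1.43, adjusted p = 0.99, limma). That sign changed under 8 of 20 alternative settings.

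Rgs18 (ENSMUSG00000026357, chr1:144752683-144775435, minus strand) encodes an RGS protein of platelets and megakaryocytes that acts on Gi and Gq subunits. It was measured at 7.71, 5.92, 2.69 and 7.67 FPKM in control mice 1 to 4 and at 13.0, 4.73, 5.53 and 0.816 FPKM in TNFdARE mice 1 to 4. As with P2ry12 and Gng11, TNFdARE mouse 1 was highest of all 8 and TNFdARE mouse 4 lowest. The means were alike, at 6.00 ± 2.36 FPKM in control mice and 6.02 ± 5.10 FPKM in TNFdARE mice (SD, n = 4 each). The log2 difference was -0.25 (95% interval -1.80 to 1.29, adjusted p = 0.95, limma), and it was 0.28 without TNFdARE mouse 4 and 0.10 with quantile normalization.

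No gene among the 8 tested reached an unadjusted p below 0.05 (0 of 8), against 4.50% of all genes tested (69, of which 27 were higher and 42 lower). After adjustment 0 of the 8 and 0 of the 1534 genes passed (smallest adjusted p = 0.86, limma). That split was 34 higher and 25 lower with quantile normalization, 31 and 32 when scaled to the platelet markers, and 74 and 37 with sample weights. Without TNFdARE mice 1 and 4 it was 51 higher and 13 lower. The groups did not overlap for 0 of the 8, against 3.32% of all genes tested. Below 0 on the log2 scale were 7 of the 8, against 63.0% of all genes tested, and above 0 was 1 of the 8, against 37.0%, with a median of -0.40 beside -0.30 over all of them. With quantile normalization and with sample weights 4 of the 8 were below 0, and without TNFdARE mice 1 and 4 the median was 0.05, beside 0.01 over all genes tested. The intervals of single genes were wide and spanned 0 for all 8. Except for Gng11 each extended to -1.53 or lower, so decreases of that size were not excluded. The upper ends were 0.33 for Gnaz, 0.92 for F2rl2 and 1.12 to 1.43 for the others, so increases up to those sizes were not excluded either. No read depth is known for these libraries.

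**Figure D4:**
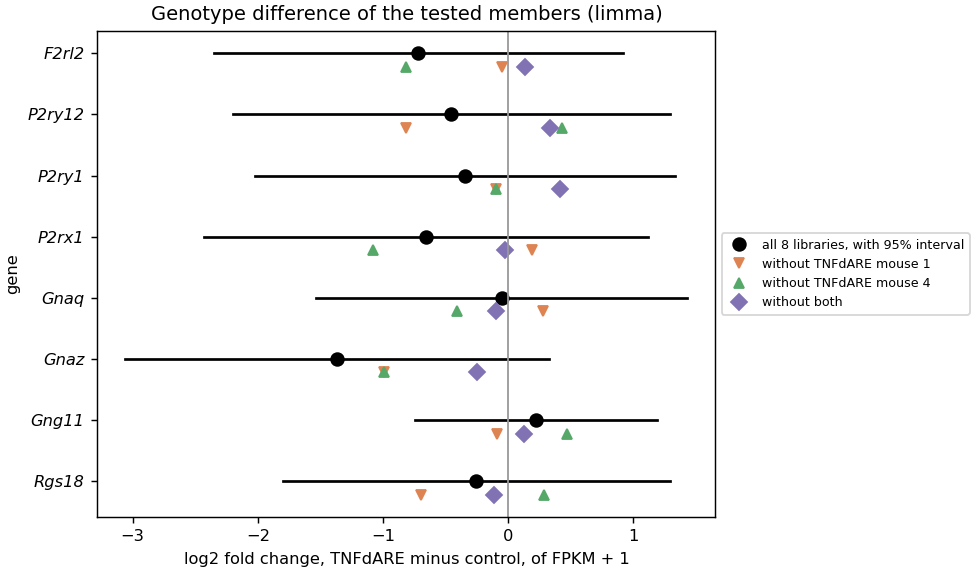
Log2 fold change of FPKM + 1 (horizontal axis, TNFdARE minus control) for the 8 genes tested, with the 95% interval from limma (black) and the estimate without TNFdARE mouse 1, without TNFdARE mouse 4 and without both (coloured). Every interval spans 0, and the estimates of P2ry12, P2rx1, Gnaq, Gng11 and Rgs18 cross 0 when 1 of these libraries is left out.

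TNFdARE mouse 1 lacked a value for F2rl2, P2ry1, P2rx1, Gnaq and Gnaz, which are 5 of the 8 genes tested, where 58.3% of all genes tested were at 0 in that library. TNFdARE mouse 4 lacked P2ry1 and Gnaz, which are 2 of the 8, where 43.0% of all genes tested were at 0. Control mouse 1 lacked P2ry1 alone, and the other 5 libraries held all 8. The detection of these genes thus went with the number of genes above 0 in the library, and its part in the genotype differences was not tested. Some of the 8 genes took opposite positions in the TNFdARE libraries with few genes. Gng11, P2ry12 and Rgs18 were highest of the 8 mice in TNFdARE mouse 1 and lowest in TNFdARE mouse 4, whereas Gnaq had its highest value in TNFdARE mouse 4 and P2rx1 was within rounding of its highest there.

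By median FPKM the order was Gng11, P2ry12, P2rx1, Rgs18, F2rl2, Gnaz, Gnaq and P2ry1. Gng11 exceeded P2ry12 in 8 of 8 libraries, by 3.66 ± 0.99 on the log2(FPKM + 1) scale (SD, n = 8). In the other 6 pairs of neighbours the upper gene was higher in 3 to 6 of 8 libraries, and the mean difference, 0.08 to 0.78, was smaller than its SD, 0.96 to 2.09. The neighbours were set by these same libraries, so no test is given, and the order between genes holds only if the values are scaled to transcript length.

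Whether the genotype difference itself differed by sex was tested with an interaction term, on 2 mice per sex and genotype. Of the 8 genes 0 fell below 0.05 unadjusted, against 3.52% of all genes tested, and none of the genes tested passed after adjustment. P2rx1 came closest, at -3.03 on the log2 scale (limma interaction, unadjusted p = 0.0625, adjusted p = 0.92). The libraries with the fewest genes above 0 were TNFdARE mouse 1, a male, and TNFdARE mouse 4, a female. P2rx1 was listed at 0 in the former and at 13.0 FPKM in the latter, and their part in the interaction was not tested.

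The rest of the pathway was described on 5 lists of other receptors, Gα subunits, Gβ and Gγ subunits, effectors and regulators. Of the 113 genes of these lists in the table, 30 were tested. None was higher and 1 was lower at an unadjusted p under 0.05, against 1.76% higher and 2.74% lower of all genes tested, and none passed after adjustment (limma). Of the 30, 10 had a log2 fold change above 0 and 20 below 0, where 63.0% of all genes tested were below 0, and the median was -0.24 beside -0.30 over all of them. The gene with the small p was Rap1b, the Rap1 isoform of platelets that activates αIIbβ3. Rap1b was measured at 13.8, 10.7, 13.2 and 13.9 FPKM in control mice 1 to 4. TNFdARE mouse 1 had a listed 0, and TNFdARE mice 2 to 4 had 10.9, 6.90 and 2.77 FPKM. TNFdARE mouse 2 overlapped the control range and the other 3 lay below it. Its log2 fold change was -1.68 (unadjusted p = 0.045, adjusted p = 0.86, limma, exact permutation p = 0.057). The unadjusted p was 0.05 or more under 14 of 21 alternatives, although the fold change stayed below 0 in all of them, from -2.58 with a pseudocount of 0.1 to -0.51 without TNFdARE mice 1 and 4. It was -0.97 without TNFdARE mouse 1 and -2.16 without TNFdARE mouse 2.

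Among the other Gα subunits 3 of 10 were tested. Gnas, which encodes the stimulatory subunit that raises cyclic AMP below the prostacyclin receptor, was as abundant as Gng11, at 61.5 to 126 FPKM over the 8 libraries. Gnai2, which encodes the main Gi subunit of P2Y12 signalling, ranged from 9.64 to 21.7 FPKM, and Gna13 from 0 to 11.4 FPKM. Of the Gβ and other Gγ genes 4 of 17 were tested. Gng5 lay between 0 and 9.90 FPKM, Gnb2 between 0 and 5.43 FPKM, and Gnb2l1, which encodes the scaffold RACK1, between 0 and 9.36 FPKM. The summed level of all listed Gβ and other Gγ genes was 0 to 23.2 FPKM per library, so Gng11, at 61.0 FPKM or more, exceeded it in every library. The only other receptor tested was Gpr56, an adhesion receptor, at 13.7 to 21.4 FPKM in the 8 libraries.

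Of the 43 effector genes 14 were tested, led by Myl9, Rasgrp2 and Rap1b. Myl9, the regulatory light chain of platelet myosin, was at 90.3 to 163 FPKM in the control libraries and at 128 to 204 FPKM in the TNFdARE libraries. Rasgrp2, which encodes the calcium-dependent activator of Rap1, was at 26.4 to 174 FPKM in control mice, was listed at 0 in TNFdARE mouse 1 and reached 39.8 to 71.9 FPKM in the other TNFdARE mice. Of the regulators 8 were tested, led by Rgs10, Ywhaz and Gpsm3. Rgs10, a further RGS gene of platelets, was listed at 0 in TNFdARE mouse 1 and at 11 to 21.0 FPKM in the other 7 mice. Ywhaz, which encodes 14-3-3ζ, was highest in TNFdARE mouse 1, at 44.9 FPKM, and lowest in TNFdARE mouse 4, at 1.85 FPKM. Gpsm3, which encodes an inhibitor of nucleotide exchange on Gα, was at 0 in 4 libraries and reached 29.4 FPKM in TNFdARE mouse 4.

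For the 3 genes with the highest mean, the most similar patterns over the 8 libraries were sought among 582 genes with a mean of at least 5 FPKM. P2ry12 was most like B3gat2, Itga6 and Gm26649 (Pearson r = 0.98, 0.98 and 0.97 over 8 libraries), which fell to 0.22, 0.64 and 0.72 without the 2 libraries farthest from its median. P2rx1 was most like Gm10401, Ppp1ca and Treml1 (r = 0.97 for each), with 0.73, 0.79 and 0.77 without the 2 farthest libraries. Gng11 was most like Serpine2, Eif4g1 and Gm20536 (r = 0.93, 0.91 and 0.89), with 0.61, 0.54 and 0.82 without them. These values were the highest of many and describe shared libraries, and no test was made.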

How the data were processed

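RNA from washed platelets of 4 TNFdARE and 4 control mice was sequenced by the authors as 150 bp reads, and 1 value per gene and mouse was deposited, taken here to be FPKM. This unit is an inference. The submitters' processing notes name Cufflinks and mm10, whereas the study's methods mention CPM when referring to bulk RNA. The columns sum to 46047.0 to 99469.5, and 197 to 200 of the 200 lowest values of each library were distinct, where equal counts would give equal CPM. The study's software list names gSNAP and Cufflinks. Versions, annotation and strand are not given in the sources used here. Each column was matched to a mouse by its library name, and 0 value columns were left unmapped. FPKM multiplied by transcript length gave no clear step that could be read as 1 fragment, so depth is unknown and no count model was used. With the best of many steps, 28.2% to 43.8% of the low values lay near whole multiples, against 20% by chance. TNFdARE mouse 1 gave no such share, and the check was inconclusive.

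Genes with a mean of at least 1 FPKM were log2-transformed after adding 1 and fitted by genotype in limma (version 3.58.1, R version 4.3.3; trended empirical Bayes, Benjamini-Hochberg). For single genes a two-sided exact permutation of the mice was added, whose smallest p is 0.029. In simulated data for these 1534 genes, 60.0% of 200 genes changed by 3 on the log2 scale were recovered, with 9 false calls. Whether this holds for libraries like TNFdARE mice 1 and 4, with 58.3% and 43.0% of genes tested at 0, was not tested. The members and lists were chosen with earlier results of these data known. Named are the members, from each other signalling list the genes with an unadjusted p under 0.05 and the 3 most abundant tested, the 3 most abundant platelet markers, and the 3 genes most like each of the 3 most abundant members. Markers of other cell types named in the text were chosen after their values were seen. Alternatives were other pseudocounts (0.1, 5), filters, scalings and limma settings, sex as a covariate, a replicate block and leaving out each mouse, and, chosen after seeing the data, leaving out TNFdARE mice 1 and 4. Locations are from GENCODE M21 (mm10), similarity from BLAST 2.17.0, windows from RefSeq, and figures from matplotlib 3.10.9. Markers were also listed for erythroid and endothelial cells, with sums of 752 to 14700 and 10.5 to 53.0 FPKM per library.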

Additional observations from a re-analysis of the deposited data

Results flagged for a closer look

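In 17 groups of 4 mice with any spread, each gene's values were examined for a mouse far from the others, and 2 had one. Chance gives about 1 in 20 groups, a rate that does not apply where the other 3 values are tied at 0. P2ry12 in TNFdARE mouse 4, at 0.0436 FPKM, was separated from the nearest TNFdARE mouse by 0.91 of the group's range on the log2(FPKM + 1) scale. F2rl3 in control mouse 4, at 0.446 FPKM, was the only value of that gene above 0, which makes the gap 1.00 of the range. A library with few genes above 0 (1225) and the highest globin level (14560 FPKM) held the former, and their part in it was not tested.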

How the results depend on the processing

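Under 20 other settings and 1 more chosen after seeing the data (without TNFdARE mice 1 and 4), the number of genes with an adjusted p under 0.05 was 0 throughout. The smallest adjusted p (limma) was 0.86 as reported, 0.17 with sample weights and 0.055 without TNFdARE mice 1 and 4. The 69 genes with an unadjusted p under 0.05 became 36 with a mean of at least 5 FPKM, where fewer genes were tested, and 111 with sample weights, and 46 to 75 when 1 mouse was left out. Of the 10 genes, those with an unadjusted p under 0.05 numbered 0 to 1 when 1 mouse was left out and 0 under the rest. The number with a log2 fold change above 0, 1 as reported, was 2 with a pseudocount of 5, median-of-ratios scaling or scaling to platelet markers, 4 with quantile normalization, sample weights or without TNFdARE mice 1 and 4, and 1 to 3 when 1 mouse was left out. Their median ranged from -1.01 with a pseudocount of 0.1 to 0.05 without TNFdARE mice 1 and 4. Over all genes tested the median was -0.30 as reported, -0.44 with a pseudocount of 0.1 and -0.06 with quantile normalization. It was 0.01 without TNFdARE mice 1 and 4.

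Signs turned as follows, and the cause was not tested. Gnaq was 0.019 with a pseudocount of 5, 0.10 with quantile normalization, 0.0054 with median-of-ratios scaling, 0.012 with scaling to platelet markers and 0.013 with sample weights. P2ry12 was 0.076 with quantile normalization and 0.076 with sample weights, Rgs18 was 0.10 with quantile normalization, and P2ry1 was 0.25 with sample weights. Without TNFdARE mice 1 and 4, F2rl2 was 0.13, P2ry12 0.33, P2ry1 0.41 and Gm37035 0.21. When 1 mouse was left out, the ranges were -0.81 to 0.43 for P2ry12, -0.72 to 0.15 for P2ry1, -1.08 to 0.19 for P2rx1, -0.41 to 0.28 for Gnaq, -0.091 to 0.47 for Gng11, -0.70 to 0.28 for Rgs18 and -0.57 to 0.16 for Gm37035. P2ry1 turned without control mouse 3, and Gnaq without control mouse 1, control mouse 3 or TNFdARE mouse 1.

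Deviations of same-numbered mice from their group means correlated at -0.067 to 0.060. With 4 mice per group and libraries that differ in completeness, this cannot show whether the mouse numbers pair the samples. Control mouse 4 and TNFdARE mouse 3 share a number in their library names, and their deviations correlated at 0.042. The library names of control mouse 1 and TNFdARE mouse 1 share a number as well, and their deviations correlated at 0.060. No block was built from the library names. With the mouse numbers as a replicate block, 64 genes fell below 0.05 unadjusted, split into 21 higher and 43 lower. The split as reported was 27 and 42, so some unadjusted calls changed. None of the 10 genes fell below 0.05 with the block, and 0 genes passed after adjustment. Limits are the 4 mice per group, the unknown depth, and listed zeros that can be failed estimates.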
